A study of Homo sapiens with 26 samples.

Results

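Transcripts of 8 cell surface antigens that are targeted, or have been considered as targets, in the treatment of multiple myeloma (MM) were measured in 26 malignant human B-cell lines: SDC1, CD38, SLAMF7, TNFRSF17, GPRC5D, FCRL5, CD27 and CD28. The members were taken by gene symbol, as every probe-set annotated to one of the 8 genes alone. This gave 17 of the 54613 probe-sets on the array that are no spike-in or control, and all 17 were used with no filter on low values. There were 12 MM lines (KMM-1, KMS-11, KMS-12-BM, KMS-12-PE, LP-1, MM1S, MOLP-8, NCI-H929, OPM-2, RPMI-8226, U-266 and AMO-1) and 14 lines grouped as diffuse large B-cell lymphoma (DLBCL: RIVA, U2932, DB, OCI-Ly7, SU-DHL-4, FARAGE, OCI-Ly19, NU-DUL-1, HBL-1, SU-DHL-8, OCI-Ly3, NU-DHL-1, SU-DHL-5 and MC-116). AMO-1 is labelled a plasmacytoma and MC-116 an undifferentiated lymphoma. All lines were profiled drug naive, in exponential growth, with 1 array per line, and no genotype or treatment differs by design between the groups. KMS-12-PE is a sister of KMS-12-BM, both known to come from the same patient, and they were counted as separate lines. Sensitivity to doxorubicin (26 lines), cyclophosphamide (24 lines, given as mafosfamide, which is active without the liver) and vincristine (24 lines) was summarised as AUC0, the area beneath the dose response curve where growth was positive, so that a high AUC0 marks a resistant line. The doxorubicin AUC0 ran from 227 to 356 in MM lines and from 167 to 327 in DLBCL lines.

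Plasma cells, from which myeloma arises, replace the surface repertoire of the B cell with one of their own. They display syndecan-1 and the BCMA receptor, through which the cytokines APRIL and BAFF keep them alive, and they lose B-cell molecules such as CD20. Antibodies, bispecific antibodies and engineered T cells against myeloma are directed at antigens of this kind, and a cell that lacks the antigen can escape such an agent. The arrays measured mRNA of whole cultures, not protein at the surface, and a lower level in every cell cannot be told apart from fewer expressing cells. All levels below are log2 values as deposited. The median over all probe-sets of an array lay between 5.65 and 5.71, and a line was said to lack an antigen where all of its probe-sets were at or below the median of that line's own array. Differences in level are given between lines for a given probe-set. Levels of different probe-sets are used together only in 4 places. These are the rule for a lacking antigen, a higher floor given below, the choice of a gene's brightest probe-set and the means of marker lists. With 1 array per line the error within a line is unknown, so that neighbouring lines in any order below could not be tested against each other.

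The labelled diseases were checked on marker genes. Of 8 plasma cell markers, 5 passed the test as higher in MM lines and none as lower, and of 7 B-cell markers 5 passed as lower in MM lines. The plasma cell markers that passed were the transcription factors PRDM1 (1.21), XBP1 (2.59) and IRF4 (2.61), DERL3 (1.64), a factor of protein degradation at the endoplasmic reticulum, and CAV1 (4.07), which encodes caveolin-1, each as the log2 difference, MM minus DLBCL. The B-cell markers were PAX5 (−6.58), BCL6 (−6.22), CD79B (−3.63), CD22 (−1.92) and MS4A1. MS4A1, which encodes CD20, averaged 4.83 ± 0.48 in MM lines and 12.13 ± 1.20 in DLBCL lines (SD, n = 12 and 14). T-cell, NK, myeloid and stromal lists held 7, 5, 6 and 6 measured markers, and none of these passed in either direction.

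The stretch of 250 bases before and 50 bases after the annotated start is shown for 4 antigens whose levels carry the results: SDC1, with the largest difference between the diseases at a brightest probe-set, CD38, which did not pass that test, GPRC5D, which passed the test between doxorubicin classes, and CD28, which was low in both KMS-12 lines. The sequences are RefSeq's for build GRCh38.p14, which listed a promoter for 6 of the 8 genes. Capitals mark matches, on either strand, to 4 motifs: GAAA or GGAA followed after any 2 bases by GAAA, the element types bound by interferon regulatory factors alone and with ETS factors, TGACGT, the core of the element bound by XBP1 and CREB-type factors, and CAGCTG, an E-box. Where several promoters were listed for a gene, that farthest upstream is shown. The listed CD28 promoter is set on a start downstream of the RefSeq start of the gene, 203706482.
SDC1, chr2:20225426-20225725, reverse strand: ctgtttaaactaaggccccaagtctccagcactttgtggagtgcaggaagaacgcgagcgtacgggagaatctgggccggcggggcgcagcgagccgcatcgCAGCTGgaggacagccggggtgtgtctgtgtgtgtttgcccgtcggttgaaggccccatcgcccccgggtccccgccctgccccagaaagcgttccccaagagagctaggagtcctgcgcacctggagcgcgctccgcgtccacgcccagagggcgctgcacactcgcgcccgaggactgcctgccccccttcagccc
CD38, chr4:15778078-15778377, forward strand: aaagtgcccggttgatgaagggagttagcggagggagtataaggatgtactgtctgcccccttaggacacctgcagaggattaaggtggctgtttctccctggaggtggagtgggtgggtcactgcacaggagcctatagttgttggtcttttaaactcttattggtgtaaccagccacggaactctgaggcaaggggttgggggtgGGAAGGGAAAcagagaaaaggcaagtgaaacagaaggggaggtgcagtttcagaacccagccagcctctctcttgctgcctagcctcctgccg
GPRC5D, chr12:12952121-12952420, reverse strand: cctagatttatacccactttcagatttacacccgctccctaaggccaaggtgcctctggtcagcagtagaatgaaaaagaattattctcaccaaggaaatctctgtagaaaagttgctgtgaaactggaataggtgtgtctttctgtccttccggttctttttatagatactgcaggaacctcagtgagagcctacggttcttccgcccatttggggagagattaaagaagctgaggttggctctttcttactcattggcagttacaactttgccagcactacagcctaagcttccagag
CD28, chr2:203706389-203706688, forward strand: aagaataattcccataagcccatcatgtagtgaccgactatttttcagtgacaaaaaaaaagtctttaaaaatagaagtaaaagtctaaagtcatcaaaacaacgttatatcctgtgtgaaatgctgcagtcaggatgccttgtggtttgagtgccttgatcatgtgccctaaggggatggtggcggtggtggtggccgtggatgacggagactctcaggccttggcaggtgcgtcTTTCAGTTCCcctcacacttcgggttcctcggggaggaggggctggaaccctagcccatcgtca
The motif that starts with GGAA was found once in the CD38 and once in the CD28 window, there on the opposite strand, and it occurs in 2.82% of 35116 promoters of this length. The SDC1 window held CAGCTG, as did 17.9% of promoters, and none of the matches overlapped. The motif that starts with GAAA (3.57% of promoters) and TGACGT (7.98%) were not in these windows, and none of the 4 motifs was in the GPRC5D window. These are matches of letters, and binding was not measured.

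**Figure D1:**
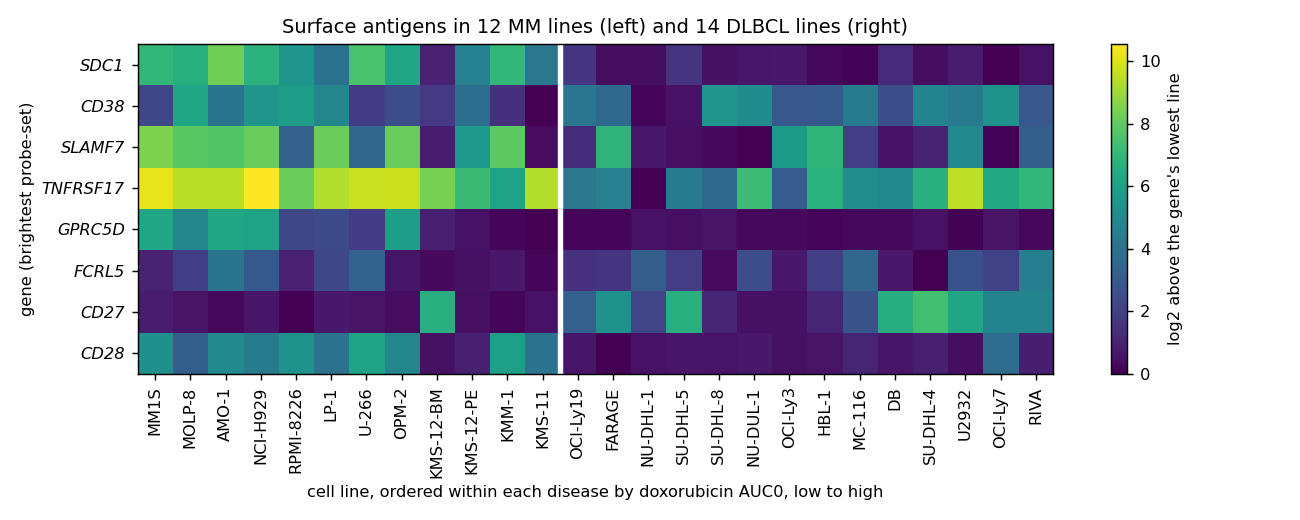
Level of the 8 antigens (rows, brightest probe-set of each gene, log2 above the lowest line of that gene) in 12 MM lines at the left and 14 DLBCL lines at the right, each ordered by doxorubicin AUC0 from low to high. SDC1 and TNFRSF17 are high in nearly every MM line, GPRC5D is high in 5 MM lines only, and CD27 is high in KMS-12-BM alone among MM lines.

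Of the 8 antigens, 6 differed between the diseases. SDC1, TNFRSF17, CD28, SLAMF7 and GPRC5D were higher in MM lines, CD27 was lower in MM lines, and CD38 and FCRL5, each by its brightest probe-set, did not pass the test. Across the array, 11.5% of probe-sets passed the same test (limma with Benjamini-Hochberg adjustment over 54613 probe-sets, adjusted p under 0.05), with 5.64% higher and 5.87% lower in MM lines. No antigen separated the diseases without overlap, which 0.189% of all probe-sets did. The median difference was 3.05 over the 8 antigens and −0.02 over all probe-sets. The antigens were chosen with earlier results of these data known, so setting them against all probe-sets is a description only.

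SDC1 encodes syndecan-1 (CD138), the heparan sulphate proteoglycan by which plasma cells are commonly isolated. At probe-set 201287_s_at the 12 MM lines ran from 6.49 in KMS-12-BM, with a median of 11.97, to 13.78 in AMO-1, and the 14 DLBCL lines ran from 5.51 in OCI-Ly7, with a median of 5.99, to 7.17 in OCI-Ly19. A total of 11 MM lines lay above every DLBCL line, and only KMS-12-BM lay among them, 2.99 below the next MM line. The mean was 11.24 ± 2.00 in MM lines and 6.17 ± 0.52 in DLBCL lines (SD), a difference of 5.07 (SE 0.53, limma adjusted p = 7.45e-07). The other probe-set, 201286_at, gave 4.47, and both followed each other over the 26 lines (Pearson r = 0.99). No MM line lacked SDC1, while OCI-Ly7 and MC-116 did. Of 11 measured genes of the other syndecans and of the making and shedding of heparan sulphate chains, 1 passed as higher and 1 as lower in MM lines: EXT2 (0.79, adjusted p = 0.0126), which elongates the chains, and HS2ST1 (−0.88, adjusted p = 0.0403), which sulphates them.

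TNFRSF17, the receptor BCMA, lay well above the array median in every MM line: the lowest MM line, KMM-1, stood at 9.70, the median at 12.99 and the highest, NCI-H929, at 14.15. In DLBCL lines it ran from 3.60 in NU-DHL-1, with a median of 8.73, to 13.14 in U2932. The range of the MM lines took in 6 DLBCL lines, U2932 above its median, and NU-DHL-1 was the only line of either disease to lack the transcript, 3.05 below the next. The mean was 12.56 ± 1.28 in MM lines and 8.86 ± 2.29 in DLBCL lines, a difference of 3.70 (SE 0.72, limma adjusted p = 0.00112).

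Among 9 measured genes around BCMA, namely its ligands, its sister receptors and the gamma-secretase that sheds it from the cell, 3 passed as higher and 1 as lower in MM lines. The 3 were subunits of gamma-secretase. PSEN2 averaged 8.59 ± 0.72 in MM lines and 6.07 ± 0.49 in DLBCL lines, a difference of 2.53 (limma adjusted p = 6.31e-08), NCSTN differed by 1.12 and APH1A by 0.71. TNFRSF13C, the BAFF receptor of B cells, was lower in MM lines by 0.45 on the log2 scale, at 6.61 ± 0.15 against 7.06 ± 0.42 in DLBCL lines.

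CD28, the receptor for CD80 and CD86 that T cells use for co-stimulation and that myeloma cells can carry, split the MM lines cleanly. At probe-set 206545_at it was 3.65 in KMS-12-BM and 5.10 in KMS-12-PE, and between 9.33 in KMS-11 and 11.42 in U-266 in the other 10 MM lines. In DLBCL lines it was 9.03 in OCI-Ly7 and between 3.38 and 5.69 in the remaining 13, so that 10 MM lines lay above all DLBCL lines. The brightest probe-set, 211856_x_at, averaged 8.72 ± 1.82 in MM lines and 5.44 ± 0.88 in DLBCL lines, a difference of 3.28 (SE 0.53, limma adjusted p = 0.000153). The difference was 5.13 at 206545_at and 3.95 at 211861_x_at. Both sister lines and every DLBCL line but OCI-Ly7 lacked CD28. The defining T-cell genes CD3D, CD3E and CD3G averaged 5.33, 5.48 and 5.09 in MM lines, against 5.39, 5.18 and 5.18 in DLBCL lines, and the highest value of any of these was 7.31, for CD3E in an MM line. Of the other 4 T-cell markers CD4 averaged 6.97 in MM lines, with 10.71 in the highest, and 6.27 in DLBCL lines, and CD2 averaged 5.08 in MM lines and 4.81 in DLBCL lines (unadjusted p = 0.0471, limma adjusted p = 0.188). Their part in the difference of CD28 was not tested.

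The ligands of CD28 went the other way. CD86 averaged 5.24 ± 1.91 in MM lines and 8.25 ± 2.09 in DLBCL lines (difference −3.01, limma adjusted p = 0.0101), and CD80 differed by −1.64. Of 11 measured genes of CD27 and CD28 signalling, none passed as higher and 3 passed as lower in MM lines, the third being the adaptor GRB2 (−0.88).

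CD27 is a TNF receptor family member of memory B cells and normal plasma cells, bound by CD70. It was at or below the array median in 11 of 12 MM lines, between 4.82 in RPMI-8226 and 5.61 in MM1S, and stood at 11.44 in KMS-12-BM. In DLBCL lines it spread from 5.30 in OCI-Ly3, with a median of 8.83, to 12.16 in SU-DHL-4, and OCI-Ly3 and NU-DUL-1 lacked it. The mean was 5.78 ± 1.80 in MM lines and 8.62 ± 2.47 in DLBCL lines, a difference of −2.84 (SE 0.83, limma adjusted p = 0.0253). The single MM line that carried CD27 exceeded 12 of the 14 DLBCL lines.

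SLAMF7, the self-binding receptor (CS1) targeted by elotuzumab, fell into separate levels within both diseases. At 222838_at the MM lines KMS-11 and KMS-12-BM stood at 4.44 and 4.91, RPMI-8226 and U-266 at 7.35 and 7.59, KMS-12-PE at 9.73, and the other 7 between 11.76 and 12.61. Among DLBCL lines HBL-1, FARAGE, OCI-Ly3 and U2932 carried 11.01, 10.97, 9.85 and 9.15, RIVA 7.31 and MC-116 6.07, and the other 8 lacked it. In all, 7 MM lines lay above every DLBCL line. The mean was 9.92 ± 3.05 in MM lines and 6.55 ± 2.60 in DLBCL lines, a difference of 3.37 (SE 1.07, limma adjusted p = 0.0399), and the 3 probe-sets correlated over the lines with r between 0.98 and 0.99. The call was lost in 17 of the 26 fits that left out 1 line, with adjusted p up to 0.0684, and held without FARAGE, HBL-1, OCI-Ly3, RIVA, U2932, KMS-11, KMS-12-BM, RPMI-8226 or U-266.

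None of 10 other measured genes of the SLAM family and its adaptors passed as higher in MM lines. CD84 (−1.94) and SLAMF6 (−1.85), both receptors of the same family, passed as lower.

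GPRC5D, an orphan G protein-coupled receptor found on plasma cells and in hair follicles, was near the array median in every DLBCL line, between 5.52 and 6.04, and 5 of the 14 lacked it. In MM lines it spread widely, and the lines are given here in 3 groups for description only. AMO-1, MM1S, NCI-H929, OPM-2 and MOLP-8 stood at 11.74, 11.73, 11.53, 11.36 and 10.32. LP-1, RPMI-8226 and U-266 followed at 7.91, 7.75 and 7.33, and KMS-12-BM, KMS-12-PE, KMM-1 and KMS-11 at 6.38, 5.99, 5.64 and 5.47, of which KMM-1 and KMS-11 lacked it. Together 9 MM lines exceeded all DLBCL lines, and the widest step, 2.41, lay below MOLP-8. The mean was 8.60 ± 2.56 in MM lines and 5.78 ± 0.17 in DLBCL lines, a difference of 2.82 (SE 0.66, limma adjusted p = 0.00548). GPRC5A, GPRC5B and GPRC5C, the related receptors, did not pass.

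CD38, the NAD-consuming ectoenzyme bound by daratumumab, spread widely in both diseases. In MM lines it ran from 5.58 in KMS-11, with a median of 8.74, to 11.78 in MOLP-8, and in DLBCL lines from 5.73 in NU-DHL-1, with a median of 9.45, to 11.07 in SU-DHL-8. KMS-11 alone lacked it, while NU-DHL-1 and SU-DHL-5 (6.08) stood 2.05 below the other DLBCL lines. The difference was −0.16, with a 95% confidence interval from −1.58 to 1.26 (limma adjusted p = 0.914). Of 7 measured NAD ectoenzymes and complement regulators, 3 passed as higher in MM lines: CD59 (2.84) and CD46 (0.83), which protect cells from complement, and NT5E (0.47), the ectoenzyme CD73. NT5E averaged 4.93 in MM lines and 4.46 in DLBCL lines, both below the array medians, so its difference lies among dim values.

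FCRL5, an Fc receptor-like protein of B cells and plasma cells, was read by 5 probe-sets that did not all follow each other. At 224404_s_at NCI-H929 carried 9.05 and the other MM lines at most 6.09, and 224405_at and 231647_s_at likewise placed NCI-H929 alone at the top of the MM lines, at 5.12 and 6.94. The brightest, 224406_s_at, instead gave 9.25 in AMO-1, 8.53 in U-266, 8.12 in NCI-H929 and 7.50 in LP-1, and over the MM lines its r with 224404_s_at was 0.31. At 1555799_at all lines lay between 4.08 and 4.87. Which of them reads the transcript was not tested. RIVA and MC-116 were the highest DLBCL lines at the first 3 and at 224406_s_at. The difference was −0.37 at the brightest probe-set (limma adjusted p = 0.678) and −1.79 at 231647_s_at (adjusted p = 0.0496), the only one of the 5 to pass. With 1 probe-set per gene, where 231647_s_at stood for FCRL5, its adjusted p was 0.0533. Of 6 other measured genes of the Fc receptor-like family 3 passed, all lower in MM lines: FCRLA (−4.91), FCRL3 (−2.88) and FCRL1 (−1.81).

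**Figure D2:**
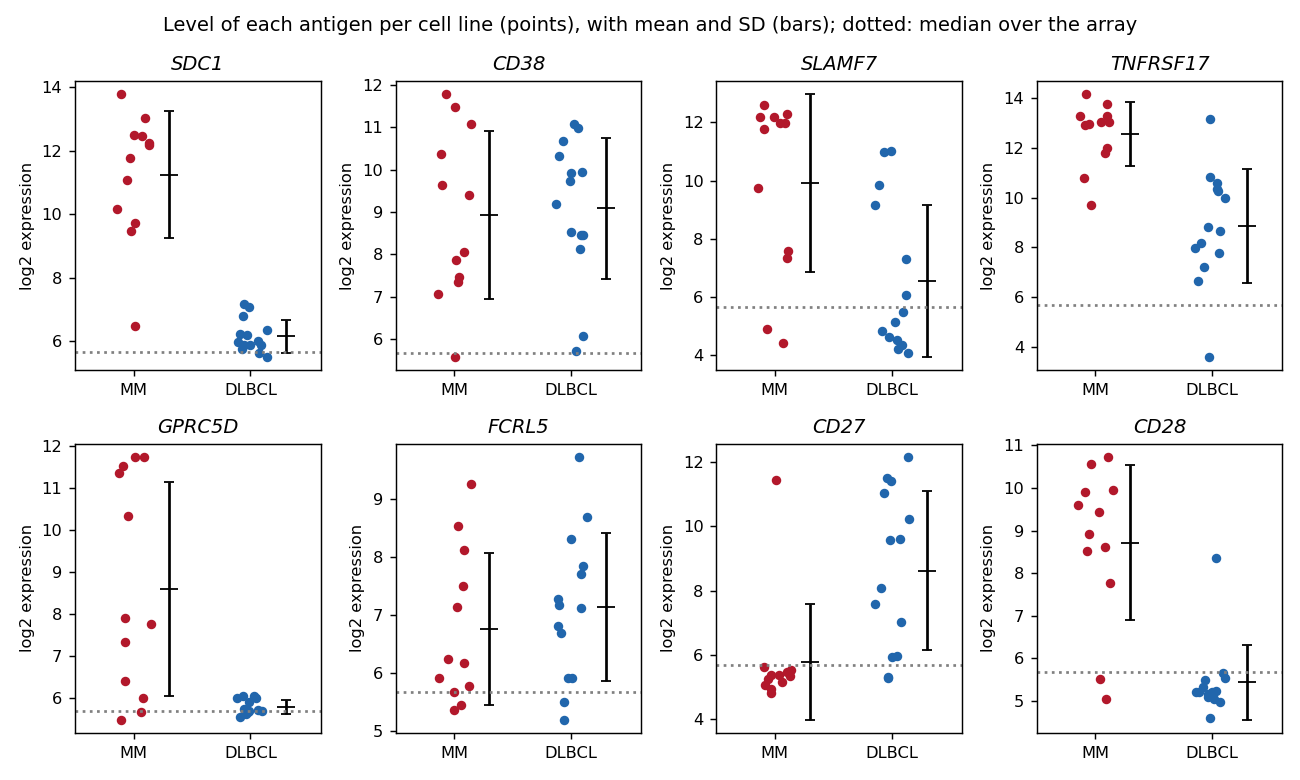
Log2 level of each antigen (brightest probe-set) in 12 MM lines, left, and 14 DLBCL lines, right, of each panel; points are lines, bars are mean and SD, and the dotted line is the median over the array. SDC1 overlaps between the diseases only through KMS-12-BM at 6.49, whereas CD38 overlaps widely.

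By the array median, an antigen was lacking in 54 of the 208 pairs of antigen and line. The cut is the median itself, so that many probe-sets of any array fall at or below it. The share of all genes that lack by the same rule was not computed, and the count is a description only. KMS-11 carried 3 of the 8 antigens, KMS-12-BM and KMS-12-PE 5, KMM-1 6 and the other 8 MM lines 7, the missing one in those 8 being CD27. DLBCL lines carried between 4 and 7, some of them barely, as GPRC5D in OCI-Ly3 at 5.696 against an array median of 5.689. With a higher floor of 7.60, the 95th percentile of 16 genes restricted to other tissues, 107 pairs were lacking, no DLBCL line carried SDC1 or GPRC5D, and the MM lines below it were KMS-12-BM for SDC1, none for TNFRSF17, and KMM-1, KMS-11, KMS-12-BM, KMS-12-PE and U-266 for GPRC5D. Under that floor KMS-12-BM carried 2 antigens, KMS-11 3, KMM-1, KMS-12-PE and U-266 4, and RPMI-8226 5. AMO-1 and NCI-H929 carried 7 and the other MM lines 6. DLBCL lines ranged from 1 in NU-DHL-1 and SU-DHL-8 to 5 in U2932. That floor is raised by MBP, which averaged 6.79 in MM lines and 8.74 in DLBCL lines.

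Levels in KMS-12-BM differed from those in its sister KMS-12-PE by 2 or more on the log2 scale for 4 of the 8 antigens. Each antigen was taken at its brightest probe-set. Of all probe-sets 2.17% differed by that much, but these include dim ones and those that vary little, so the shares are not like for like. CD27 was 11.44 in KMS-12-BM and 5.24 in KMS-12-PE, a difference of 6.20. SLAMF7 was 4.91 in KMS-12-BM and 9.73 in KMS-12-PE, SDC1 6.49 in KMS-12-BM and 10.17 in KMS-12-PE, and CD38 7.34 in KMS-12-BM and 9.41 in KMS-12-PE. At the brightest probe-sets KMS-12-BM stood outside the range of the other 10 MM lines for SDC1, CD27 and CD28, and KMS-12-PE for CD28 alone. Both were low for GPRC5D, and TNFRSF17 was present in both, at 11.99 in KMS-12-BM and 10.78 in KMS-12-PE. Of the 8 plasma cell markers 1 differed by 2 or more, and the median difference, KMS-12-BM minus KMS-12-PE, was 0.21 over the 8: JCHAIN, the joining chain of secreted antibody, was 4.20 in KMS-12-BM and 13.52 in KMS-12-PE. Of the 7 B-cell markers 1 was higher and 1 lower in KMS-12-BM by that much, with a median difference of −0.06: PAX5 was 7.15 in KMS-12-BM and 3.90 in KMS-12-PE, and BACH2 was 5.62 in KMS-12-BM and 8.10 in KMS-12-PE. Of the 10 SLAM family and adaptor genes 2 were lower in KMS-12-BM by that much and none higher: CD48 was 6.15 in KMS-12-BM and 11.44 in KMS-12-PE, and LY9 was 5.67 in KMS-12-BM and 8.24 in KMS-12-PE. There was 1 array of each line, so these differences have no test.

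**Figure D3:**
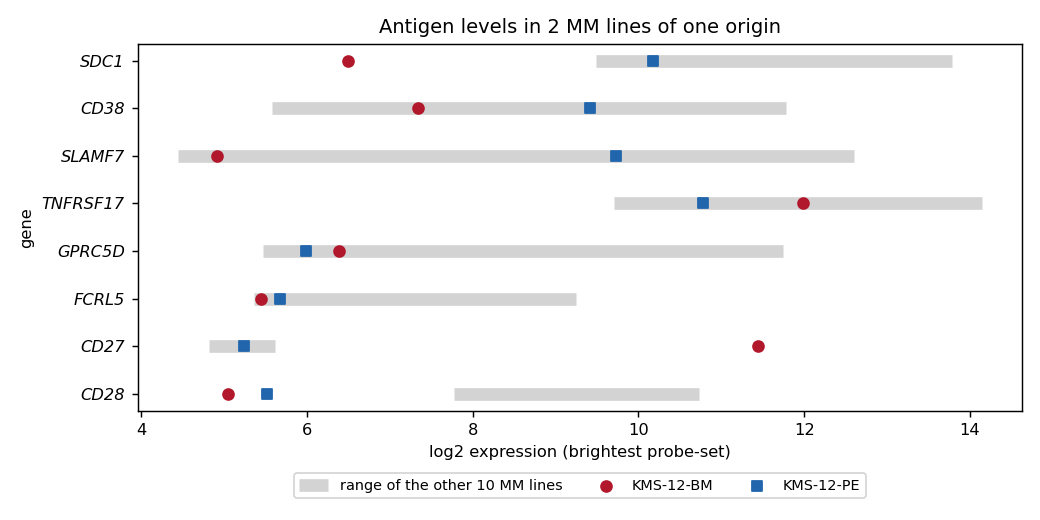
Log2 level of each antigen in KMS-12-BM (circles) and KMS-12-PE (squares), over the range of the other 10 MM lines (grey bars). CD27 is high in KMS-12-BM only, at 11.44, and CD28 is below the grey bar in both lines.

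The relation of the antigens to doxorubicin in MM lines was examined with the classes of the labels, which are tertiles of AUC0 within the disease. The resistant lines were KMM-1, KMS-11, KMS-12-BM and KMS-12-PE (AUC0 331 to 356), and the sensitive lines MM1S, MOLP-8, NCI-H929 and AMO-1 (227 to 291). KMS-12-BM and KMS-12-PE come from the same patient, and the test below treats them as independent lines. GPRC5D was 5.64 in KMM-1, 5.47 in KMS-11, 6.38 in KMS-12-BM and 5.99 in KMS-12-PE, against 11.73 in MM1S, 10.32 in MOLP-8, 11.53 in NCI-H929 and 11.74 in AMO-1. The classes were 3.94 apart at their nearest members, the widest such gap of any probe-set among those lower in resistant lines. The mean was 5.87 ± 0.40 in resistant lines and 11.33 ± 0.68 in sensitive lines (SD, n = 4 each), a difference of −5.46 (SE 0.36, limma adjusted p = 0.0288). The resistant lines lay near the array median, so no fold is given. GPRC5D was the only one of 54613 probe-sets to pass, 0.00183% of them.

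That call was lost in 7 of the 8 fits that left out 1 line and held without MOLP-8, with values between −5.79 and −5.32 and adjusted p between 0.00399 and 0.262. The fit without KMS-12-PE (adjusted p = 0.262) was 1 of those 7. The call was also lost with the serum content of the medium as a block (−5.43, adjusted p = 0.0727). Within the lines grown in 10% serum GPRC5D was 5.47 and 5.64 in 2 resistant lines and 11.73 in 1 sensitive line, and within those grown in 20% serum it was 5.99 and 6.38 in 2 resistant lines and 10.32 to 11.74 in 3 sensitive lines.

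The intermediate lines did not all lie between. OPM-2 had an AUC0 of 329 (95% interval 313 to 339) with GPRC5D at 11.36, and KMS-12-BM an AUC0 of 331 (307 to 337) with GPRC5D at 6.38. LP-1, RPMI-8226 and U-266, with AUC0 between 297 and 325, stood at 7.91, 7.75 and 7.33.

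For the other antigens the difference was negative as well, except for CD27, but none passed. TNFRSF17 was 12.94 at most in resistant lines and 13.04 at least in sensitive lines, with means of 11.35 ± 1.41 in resistant lines and 13.50 ± 0.55 in sensitive lines (difference −2.15, limma adjusted p = 0.54). SLAMF7 averaged 7.77 ± 3.69 in resistant lines and 12.13 ± 0.36 in sensitive lines (−4.36, adjusted p = 0.629), and of the resistant lines KMM-1 held 11.98 and KMS-12-PE 9.73. SDC1 differed by −2.96, CD38 by −2.74, FCRL5 by −2.09 and CD28 by −1.62, with adjusted p between 0.484 and 0.827, and CD27 by 1.37, which turned to −0.19 without KMS-12-BM.

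GPRC5D, TNFRSF17 and FCRL5 were the antigens whose brightest probe-set did not overlap between the classes, as was true of 4.46% of all probe-sets. The other 4 probe-sets of FCRL5 overlapped between the classes. Of the 8 antigens 6 had an unadjusted p under 0.05, against 7.33% of probe-sets, and the median difference was −2.44 over the antigens and 0.04 over all probe-sets. The antigens share lines, so that they are not independent of each other. They were also chosen with earlier results of these data known. Each was counted by its brightest probe-set, while the shares are over all probe-sets, dim ones included. The counts and medians are therefore descriptions and no test of the antigens as a set. The mean of the 8 plasma cell markers ran from 9.29 to 10.65 in resistant lines and from 10.59 to 11.54 in sensitive lines. The 9.29 was that of KMS-12-BM, where JCHAIN stood at 4.20. Of the 8 markers 7 were lower in resistant lines and 1 was higher. The higher one was CAV1, with means of 10.45 in resistant lines and 9.46 in sensitive lines. None of the 8 passed, and their part in the differences of the antigens was not tested. LY9, a SLAM family receptor, had the largest difference of the list genes outside the 8 antigens, −3.56 (adjusted p = 0.411), with means of 6.70 in resistant lines and 10.26 in sensitive lines.

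**Figure D4:**
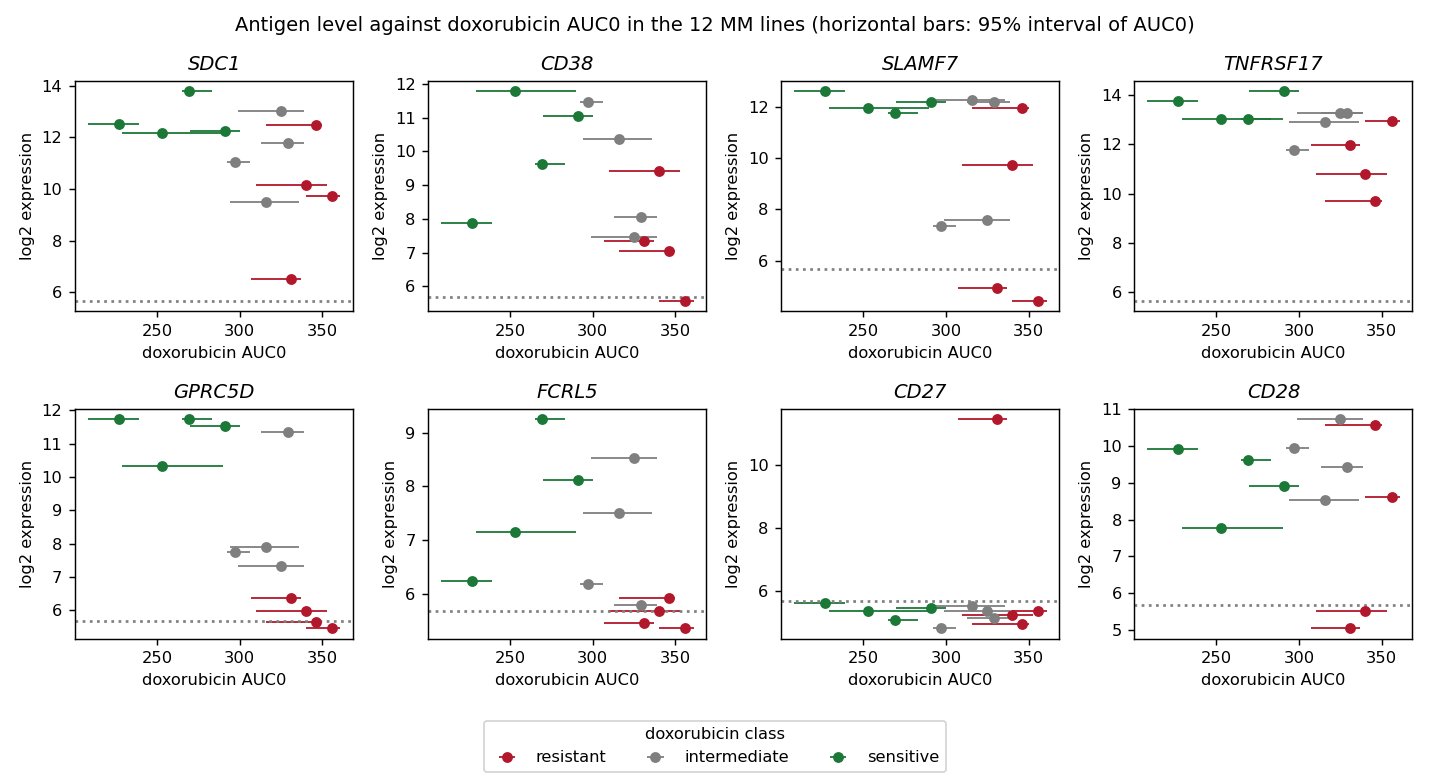
Log2 level of each antigen (vertical axis, brightest probe-set) against doxorubicin AUC0 (horizontal axis, with its 95% interval) in the 12 MM lines, coloured by class; the dotted line is the median over the array. For GPRC5D the 4 resistant lines sit between 5.47 and 6.38 and the 4 sensitive lines between 10.32 and 11.74, with OPM-2 among the intermediate lines at 11.36.

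Over all 12 MM lines the slope of GPRC5D was −4.99 per 100 units of doxorubicin AUC0 (SE 1.17, 95% confidence interval −7.55 to −2.42, unadjusted p = 0.00121 from limma), and the adjusted p was 0.999. No antigen passed, and 0.00183% of all probe-sets did. Of the 8 antigens, 1 had an unadjusted p under 0.05, against 4.17% of all probe-sets. The slopes of the other antigens were −3.93 for SLAMF7, −2.54 for CD38, −2.33 for SDC1, −1.66 for TNFRSF17, −1.37 for FCRL5, −0.97 for CD28 and 0.68 for CD27. Of the 8 slopes 7 were negative, with a median of −1.99, and the median over all probe-sets was 0.04. As a description over 12 lines that include the sister pair, Pearson's r of GPRC5D with AUC0 was −0.78 and Spearman's rho −0.87.

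In DLBCL lines 7 of the 8 doxorubicin slopes were positive. GPRC5D, near the array median throughout, had a slope of 0.02, TNFRSF17 one of 2.64 (unadjusted p = 0.0162) and CD28 one of 0.90 (unadjusted p = 0.0370), and none passed (adjusted p of at least 0.883, limma). These were the 2 of 8 with an unadjusted p under 0.05, against 5.5% of all probe-sets. OCI-Ly7, the only DLBCL line that carried CD28, had an AUC0 of 325, and its part in that slope was not tested. The difference of the slopes, MM minus DLBCL, was −5.01 for GPRC5D (unadjusted p = 5.09e-05, adjusted p = 0.397), −4.29 for TNFRSF17 (unadjusted p = 0.00655, adjusted p = 0.905) and −3.44 for CD38 (unadjusted p = 0.0340, adjusted p = 0.963). All 8 differences were negative, these 3 had an unadjusted p under 0.05, against 5.12% of all probe-sets, and none passed the adjusted test. The median was −2.69 over the antigens and 0.03 over all probe-sets. As the antigens were chosen with earlier results of these data known, these counts and those of the slopes within each disease are descriptions.

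No antigen passed for the other 2 drugs (limma), and 0 of 8 had an unadjusted p under 0.05 in either disease. Of all probe-sets, 3.44% did for cyclophosphamide and 4.66% for vincristine in MM lines, and 4.95% for cyclophosphamide and 4.3% for vincristine in DLBCL lines. For cyclophosphamide in MM lines the slopes ran from −2.58 for SLAMF7 to 1.45 for FCRL5, and that of GPRC5D was −0.77 with a 95% confidence interval from −4.42 to 2.87. For vincristine they ran from −1.44 for SDC1 to 3.30 for CD38, and that of GPRC5D was −0.84 (−6.60 to 4.93). Adjusted p was at least 0.982 for every antigen and both drugs in MM lines, and at least 0.983 in DLBCL lines. Percentages of probe-sets passing were 0 for both drugs in both diseases. The intervals are wide, and differences between drugs were not tested.

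**Figure D5:**
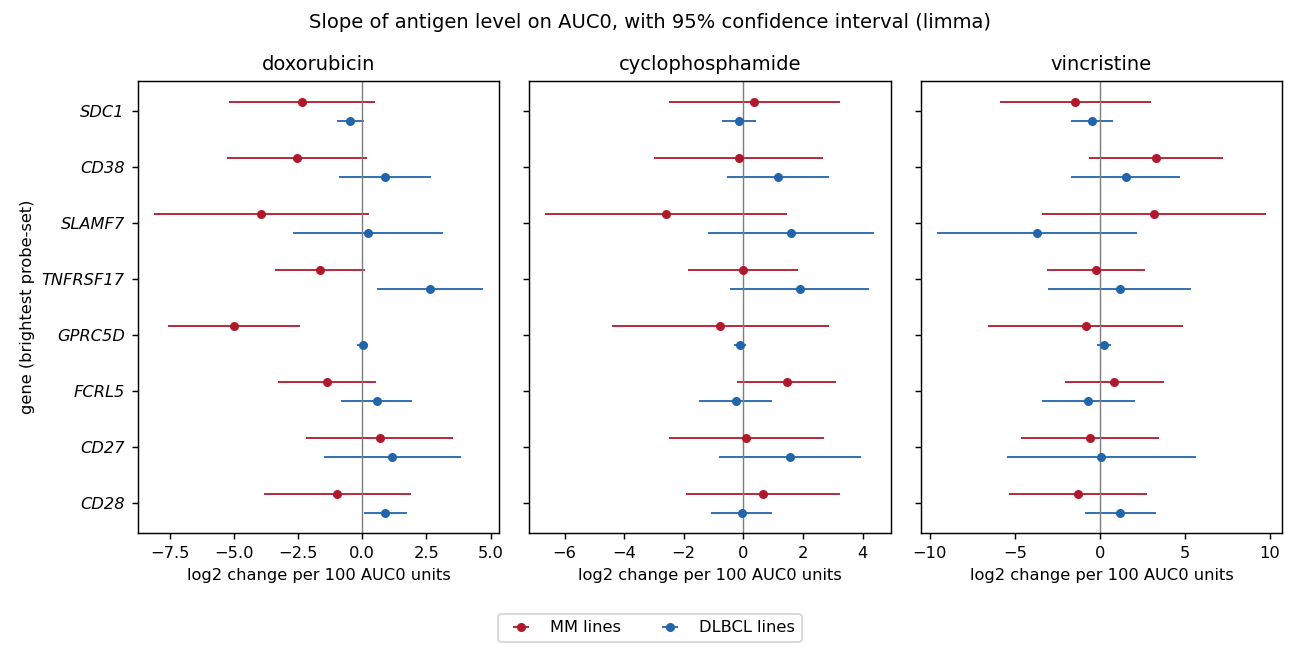
Slope of each antigen on the AUC0 of doxorubicin, cyclophosphamide and vincristine (log2 change per 100 units, with 95% confidence interval) in MM lines (red, upper of each pair) and DLBCL lines (blue, lower). GPRC5D against doxorubicin in MM lines, at −4.99, is the slope farthest from 0 relative to its interval.

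Within the 12 MM lines the 8 antigens varied only partly together. Of 28 pairs, 20 had a positive Pearson r, and the median was 0.31. The highest was 0.76 for SDC1 and CD28 and the lowest −0.75 for SDC1 and CD27, and KMS-12-BM was the lowest MM line for SDC1 and CD28 and the highest for CD27. GPRC5D had an r of 0.71 with TNFRSF17 and 0.66 with SLAMF7. These are descriptions over 12 lines that share the sister pair.

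For each antigen, the genes whose levels followed it most closely over the 12 MM lines were sought among 2104 genes with an SD of at least 1 there. GPRC5D was followed by LMO4 (r = 0.86), a LIM-only transcriptional regulator, RAB36 (0.85) and GALNT3 (0.83), which adds the first sugar of O-linked glycans. TNFRSF17 was followed by MINPP1 (0.88), POU2AF1 (0.85), a co-activator of B and plasma cells, and TOX2 (0.83). SLAMF7 was followed by CBFA2T3 (0.91), a transcriptional co-repressor, MEF2C (0.84) and CD48 (0.84), a receptor of the same family, and CD28 by the cyclin CCND2 (0.89), NEDD4L (0.86) and VIM (0.85).

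SDC1 was closest to DNAJC6 (0.88), HLTF (0.81) and MAGEA1 (0.81), CD38 to SPAG4 (0.86), SIDT2 (0.85) and TXNIP (0.82), and FCRL5 to ACTR3-AS1 (0.90), RIPOR2 (0.85) and BMP8B (0.84). The nearest genes of CD27, DOK7, LOC105370697 and TBX5-AS1, had r of at least 0.98, for an antigen carried by KMS-12-BM alone among the MM lines. None of these correlations was tested.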

How the data were processed

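RNA from 26 drug-naive cell lines was hybridised to Affymetrix HG-U133 Plus 2.0 arrays, 1 per line. The log2 values deposited by the authors, 54675 probe-sets from 2.41 to 15.09, were made with RMA of the affy package in R 3.0.1, per the labels; RMA equalises the distributions of the arrays, so that values hold differences between lines but no absolute amounts. Background is not removed fully, which compresses folds of dim genes. The number of arrays limits the precision. AUC0 values, their intervals and the classes were taken from the labels, where the doxorubicin class follows the doxorubicin value under a tag naming another drug. The classes were derived from AUC0.

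From these values, 62 control probe-sets were left out, and limma 3.58.1 in R 4.3.3 (lmFit, eBayes) was fitted to all 54613 others, with Benjamini-Hochberg adjustment over all and a threshold of 0.05: MM against DLBCL lines, slopes on AUC0 per 100 units within each disease, the difference of slopes, and resistant against sensitive MM lines for doxorubicin. Gene names came from GEO's platform annotation: 41091 probe-sets had 1 symbol, 1801 several and 11721 none. Scripts were tested on simulated data, with changes planted only in probe-sets of an SD under 1 over the MM lines. The brightest probe-set of every antigen had a higher SD, the lowest being 1.28 for TNFRSF17, so recovery at their spread was not tested. All members and all their probe-sets are named; the probe-set with the highest mean over 26 lines stands for a gene. From 14 other lists, genes that passed were named, at most 5 per list by smallest p, besides genes that bear on a member's result, and 9 list genes were not analysed here. For likeness, 3 genes per member were named. The members and lists were chosen with earlier results of these data known. Replicates are different lines, so p-values measure the spread between lines. Alternatives were 1 probe-set per gene, no dim probe-sets, median-centred arrays, a trend in the prior variance, ranks of AUC0, and leaving out single lines, KMS-12-PE, or AMO-1 and MC-116 together; the serum block and the alternatives of the class comparison were added after seeing the data. Figures were drawn with matplotlib 3.10.9.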

Additional observations from a re-analysis of the deposited data

Results flagged for a closer look

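Within the 3 doxorubicin classes of 4 MM lines each, 24 groups of values were checked for a line far from the other 3, of which chance marks about 1 in 20. In 3 groups such a line was found. CD27 in the resistant lines was 11.44 in KMS-12-BM, against 5.35 in the next line. GPRC5D in the intermediate lines was 11.36 in OPM-2, against 7.91 in the next. GPRC5D in the sensitive lines was 10.32 in MOLP-8, against 11.53 in the nearest, and MOLP-8 still lay 3.94 above the highest resistant line.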

How the results depend on the processing

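The higher SDC1, TNFRSF17, GPRC5D and CD28 and the lower CD27 in MM lines passed in all 32 alternative fits. These count the fit without KMS-12-PE both as a setting of its own and among the single lines left out. SLAMF7 passed in 13 of 32: it was 3.39 (adjusted p = 0.0507, limma) without KMS-12-PE and 3.17 (0.0799) without MC-116 and AMO-1. CD38 ranged from −0.42 to 0.15, turning sign without KMM-1 or KMS-11. The number of probe-sets passing between the diseases was 6285, and 3483 with 1 probe-set per gene, where fewer were tested; it was 5499 to 6442 with 1 line left out.

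For doxorubicin in MM lines, the 1 probe-set passing in the slope became 0 without dim probe-sets, without the 2 extreme lines (MM1S and MOLP-8) and with ranks, and was 0 to 1 with 1 line left out. The 1 passing between the classes became 0 without KMS-12-PE and 0 with the serum block, and was 0 to 3 with 1 line left out. For the difference of doxorubicin slopes it was 3 in place of 0 without MC-116 and AMO-1. No cause was tested. Lacking pairs of antigen and line numbered 54, and 107 under the higher floor.

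Several slopes turned sign, not all of them near 0, and none of them had a call. For cyclophosphamide in MM lines, SDC1 (0.37) was −0.91 without AMO-1, −0.27 without the 2 extreme lines (AMO-1 and MM1S) and −0.19 with ranks; TNFRSF17 (−0.02) was 0.46 and 0.23 in the last pair of settings, CD38 (−0.16) was 0.17 with ranks, and CD27 (0.10) was −0.021 with the serum block. In DLBCL lines without 2 extreme lines, GPRC5D against doxorubicin (0.02) was −0.094, CD38 (1.16) and FCRL5 (−0.26) against cyclophosphamide were −0.76 and 0.038, and FCRL5 (−0.67) and CD27 (0.10) against vincristine were 2.16 and −0.67. CD27 against vincristine was also −0.21 without MC-116 and −0.23 with ranks, CD28 against cyclophosphamide (−0.06) was 0.15 with 1 probe-set per gene, and the difference of cyclophosphamide slopes of SDC1 (0.51) was −0.76 without MC-116 and AMO-1.

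With 1 line left out in MM lines, the slope of CD27 on doxorubicin ran from −0.19 to 0.98. Those on cyclophosphamide ran from −0.91 to 1.16 for SDC1, −0.76 to 1.03 for CD38, −0.33 to 0.59 for TNFRSF17, −2.91 to 0.54 for GPRC5D and −0.23 to 0.56 for CD27. Those on vincristine ran from −1.02 to 0.33 for TNFRSF17, −1.94 to 0.51 for GPRC5D and −0.88 to 0.19 for CD27. The class difference of CD27 ran from −0.19 to 1.97.

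No paired analysis was possible because the replicate numbers only name lines of the 2 diseases and link none of them. With 1 array per line and 4 lines per class, the spread within a line, batches and protein at the surface were not analysed here.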
